A study of Mus musculus with 8 samples.

Results

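The SOCS cytokine feedback genes are the 8 genes Socs1, Socs2, Socs3, Socs4, Socs5, Socs6, Socs7 and Cish, and their N6-methyladenosine (m6A) peaks were examined in mouse embryonic fibroblasts (MEFs) with and without nutrient starvation. Members were all peaks whose deposited gene name was one of these 8, in the peak lists of the 4 immunoprecipitated (IP) libraries. This gave 25 peaks of 38705 in all, on 6 of the 8 genes. MEFs were wild-type C57BL/6 cells from embryos of day 13.5 post coitum, used at passage 5 to 6. Control cells stayed in complete medium, and starved cells spent 2 h in nutrient-deprived medium, a balanced salt solution. Each condition had 2 replicates, and each replicate an IP and an input library, which makes 8 samples in 4 groups. In MeRIP-seq, fragmented polyadenylated RNA is captured with an antibody against m6A and compared with input RNA that skipped the capture, and here each library came from a bulk culture.

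SOCS proteins are the negative feedback arm of cytokine signalling. A cytokine receptor activates JAK kinases, the kinases phosphorylate STAT transcription factors, and STATs switch on SOCS genes whose products then shut the receptor down. Every SOCS protein has a central SH2 domain, which binds phosphotyrosine, and a carboxy-terminal SOCS box, which recruits elongins and a cullin to form a ubiquitin ligase. SOCS4, SOCS5, SOCS6 and SOCS7 also carry a long amino-terminal stretch and are linked more to receptor tyrosine kinases and insulin signalling than to cytokine receptors. In T cells, m6A is known to speed the decay of several SOCS mRNAs, which has made the family a textbook case of m6A in signalling.

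For 5 of the genes with a peak, part of the sequence under the peak is shown, so that the m6A context can be seen. The mark is laid down mostly on the A of GGAC and related words. Each line is a window of 29 bases from the transcribed strand, written as DNA from GENCODE M21 (GRCm38). It was taken at the GGAC nearest to the middle of the stretch shared by most libraries, and that GGAC is in capitals. The Socs5 window is chr17:87134107-87134135 (plus strand, codon 163), the Socs4 window is chr14:47289816-47289844 (plus strand, codon 74) and the Socs2 window, from the region called in starved cells, is chr10:95412696-95412724 (minus strand, codon 180, with the A 54 nt before the last coding base). The Cish window is chr9:107301353-107301381 (plus strand, 3′ UTR, 470 nt after the last coding base), and the Socs7 window is chr11:97363133-97363161 (plus strand, codon 169).
Socs5: cagctccatgcaGGACatggacagcgttt
Socs4: gtccattgagttGGACttagatcattcct
Socs2: ggtacgatctggGGACtgcctttaccaac
Cish: gactgggctaggGGACtacacagttatac
Socs7: ctttccgctgcaGGACttggtccctccag
In the Socs4, Socs2, Cish and Socs7 windows the GGAC in capitals is followed by t, the base of the extended form GGACT. In the Socs5 window it is followed by a. That window also holds a further GGAC, left in lower case and likewise followed by a. A match shows only that the letters are there, not that the adenosine was methylated.

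The peak lists of the IP libraries had 8974 to 10103 entries. The fold enrichment of a peak is its IP signal over the local input background, and its score is a log-transformed p-value (larger is stronger) that stops at 3100. The median fold enrichment of all peaks was 12.2 and 12.3 in control against 14.6 and 14.7 after starvation, a shift of 0.26 on the log2 scale that touches every value below. The files hold no read counts, so depth and counting error are unknown and the input level of each mRNA cannot be read. Among 11 fibroblast markers 8 carried a peak in some library, against 1 of 4 leukocyte, 1 of 3 endothelial and 2 of 4 epithelial markers. Over all annotated protein-coding genes 42.6% had a peak in any library, and no cell type is read from lists this short. The fibroblast genes Col1a1 and Vim had none, nor had Ptprc (leukocytes), Pecam1 (endothelium) or Epcam (epithelium), and a transcript without a peak may still be present. The endothelial marker Kdr had 140.85 in control replicate 1 and 20.26 and 38.26 in starved cells. Among the epithelial markers, Krt18 had 10.89 and 24.17 in control and no starved peak. Krt8 went the other way, with 10.92 in starved replicate 1 and no control peak. The part of such cells in the results was not tested.

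Starvation went with no detectable change in how many SOCS peaks or genes were called. Member peaks numbered 6 and 5 in the control and 9 and 5 in the starved libraries, so the groups overlapped. The difference in means, starved minus control, was 1.5 peaks against an SD of 2.83 between the starved replicates (exact two-sided permutation p = 1, n = 2 per group). Peaks were found on 5 and 3 members in control and on 5 and 4 members in starved libraries, again with overlap (difference 0.5, exact permutation p = 1, n = 2 per group). The median fold enrichment of member peaks was 13.9 and 6.56 without and 24.7 and 8.93 with starvation, and on the log2 scale it differed by 0.63 (exact permutation p = 0.667, n = 2 per group). Without starved replicate 1, the library with 9 peaks, the differences in peaks and in median turned to -0.5 peaks and -0.10 log2 units. With 2 libraries against 2 the smallest p this test allows is 0.333, so no difference between groups could reach 0.05.

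Of the members, Socs4, Socs5 and Socs6 had a peak in all 4 libraries, Socs2 in 3, Cish and Socs7 in 1 each, and Socs1 and Socs3 in none. For comparison, 29.2% of the 9778 genes with any peak had one in all 4 libraries, and 42.6% of annotated protein-coding genes had a peak in any library. Socs1 and Socs3, the main inhibitors of JAK kinases and of gp130 receptors, are not compared between groups, because the absence of a peak does not separate an unmethylated mRNA from one with too little RNA to call. The 25 peaks merged into 11 regions when peaks that overlapped by at least 1 bp were joined. A peak in a single library accounted for 6 of these regions, beside 56.2% of all 21168 merged regions. Regions called in both starved and in neither control library numbered 1 of 11 (Socs2), against a background of 3.2% of all regions. Regions with the reverse pattern also numbered 1 (Socs6), against a background of 4.15%, and 2 regions (Socs5 and Socs6) had a peak in all 4 libraries, against 10.7%. With 11 regions, no difference from the background is read from these counts.

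**Figure D1:**
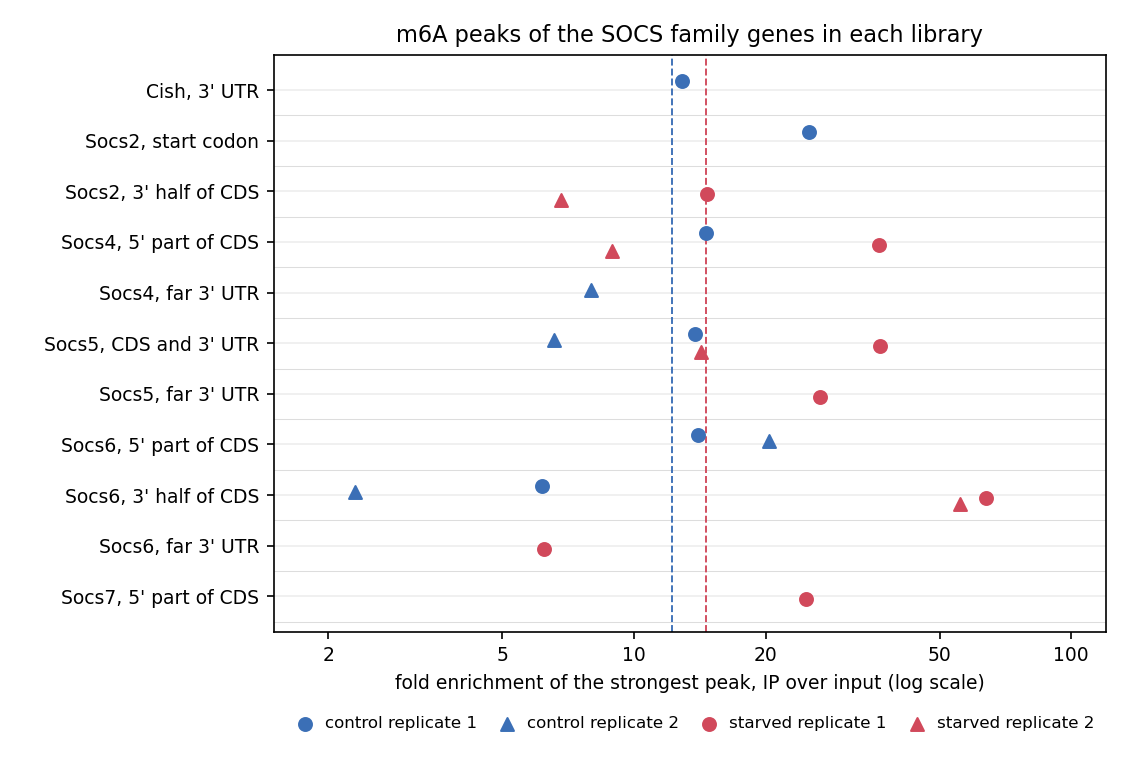
Fold enrichment (log scale) of the strongest peak of each library in the 11 merged regions of the SOCS genes, with blue for control, red for starved, circles for replicate 1, triangles for replicate 2, and dashed lines at the mean of the 2 library medians in each group. Both starved values of the Socs6 region at the 3′ end of the coding sequence, 63.95 and 55.7, lie far to the right of the control values 6.16 and 2.3, while the Socs6 region at the 5′ end has control values alone.

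Socs6 carried the largest difference between groups in the family. SOCS6 binds the insulin receptor and the receptor tyrosine kinase KIT, and its mRNA (minus strand of chromosome 18, build mm10) has 3 exons with the whole coding sequence of 533 codons in the last one. Peaks in the 3′ part of this coding sequence were called in every library, from 88869171 to 88869808 in control replicate 1, from 88869174 to 88869682 in control replicate 2, from 88869029 to 88869859 in starved replicate 1 and from 88869075 to 88870005 in starved replicate 2. They start at codon 328, 370, 311 and 262 in the same order and all run across the stop codon.

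Fold enrichment there was 6.16 in control replicate 1, 2.3 in control replicate 2, 63.95 in starved replicate 1 and 55.7 in starved replicate 2. The groups did not overlap, and starved values lay above control values in 22.9% of the 2257 regions called in every library (16.9% relative to the library medians). The control replicate 2 value was lower than all but 0.284% of the peaks of its library, and 87.3% or more of the peaks of a starved library lay below the starved values. Mean log2 fold enrichment went from 1.91 ± 1.01 (control) to 5.90 ± 0.14 (starved, SD, n = 2 per group), a difference of 3.99 or 15.9-fold (exact two-sided permutation p = 0.333, n = 2 per group). Relative to the library medians the difference was 3.73. No peak of another gene lay on the Socs6 exons.

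This was the largest increase among the 2257 regions, though some decreases were larger in size. The next largest increase was 3.46, the median difference 0.10, and 7 regions increased by 3 or more. Ranks are counted from the largest increase. The control peaks behind the Socs6 difference were weak, with scores of 259 and 57.6 and false discovery rates of 38.1% and 70.5% as deposited. Both starved peaks had a score of 3100, a cap that peaks reached more often in the starved libraries, and rates of 10.1% and 7.52%. Without control replicate 2 the difference was 3.28 (rank 12), and without control replicate 1 it was 4.70 (rank 1). It held rank 3 without starved replicate 1 (3.89) and without starved replicate 2 (4.09). When peaks under 4-fold enrichment or under a score of 100 were removed, or when each list was cut to its 8974 best-scoring peaks, the control replicate 2 peak was lost and the comparison of 4 libraries could not be made.

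At the other end of the coding sequence, in the same exon, Socs6 showed the opposite pattern. A region over the first codons had a fold enrichment of 14.05 in control replicate 1 (88870340 to 88870812, score 1148) and of 20.42 in control replicate 2 (88870369 to 88870794, score 2105). It was called in neither starved library. It covered the start codon and codons 1 to 150 and lay 334 nt upstream of the region at the 3′ end. The strongest Socs6 peak thus lay at the start of the coding sequence in both control libraries and at its end in both starved libraries. Taken as the strongest peak wherever it lay, the starved values exceeded the control values for Socs5 and Socs6 but not for Socs4, 2 of the 3 members with a peak in all 4 libraries, against a background of 23.4% of such genes. For Socs6 this gave 14.05 and 20.42 against 63.95 and 55.7, a difference of 1.82 log2 units (exact permutation p = 0.333, n = 2 per group) that rests on peaks at different places. Of all 9778 genes with a peak, 50 (0.511%) held both a region called only in the 2 control libraries and a region whose 2 starved values exceeded both control values. The 5′ region held 1 GGAC, the core of the usual m6A sequence context, over 473 nt and the 3′ region held 3 over 977 nt. A further Socs6 peak, deep in the 3′ UTR from 88865696 to 88866063, was called in starved replicate 1 alone with a fold enrichment of 6.22 and a score of 195. In bulk RNA a change in the share of mRNA copies that carry the mark and a change in the number of marks on each copy cannot be told apart.

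**Figure D2:**
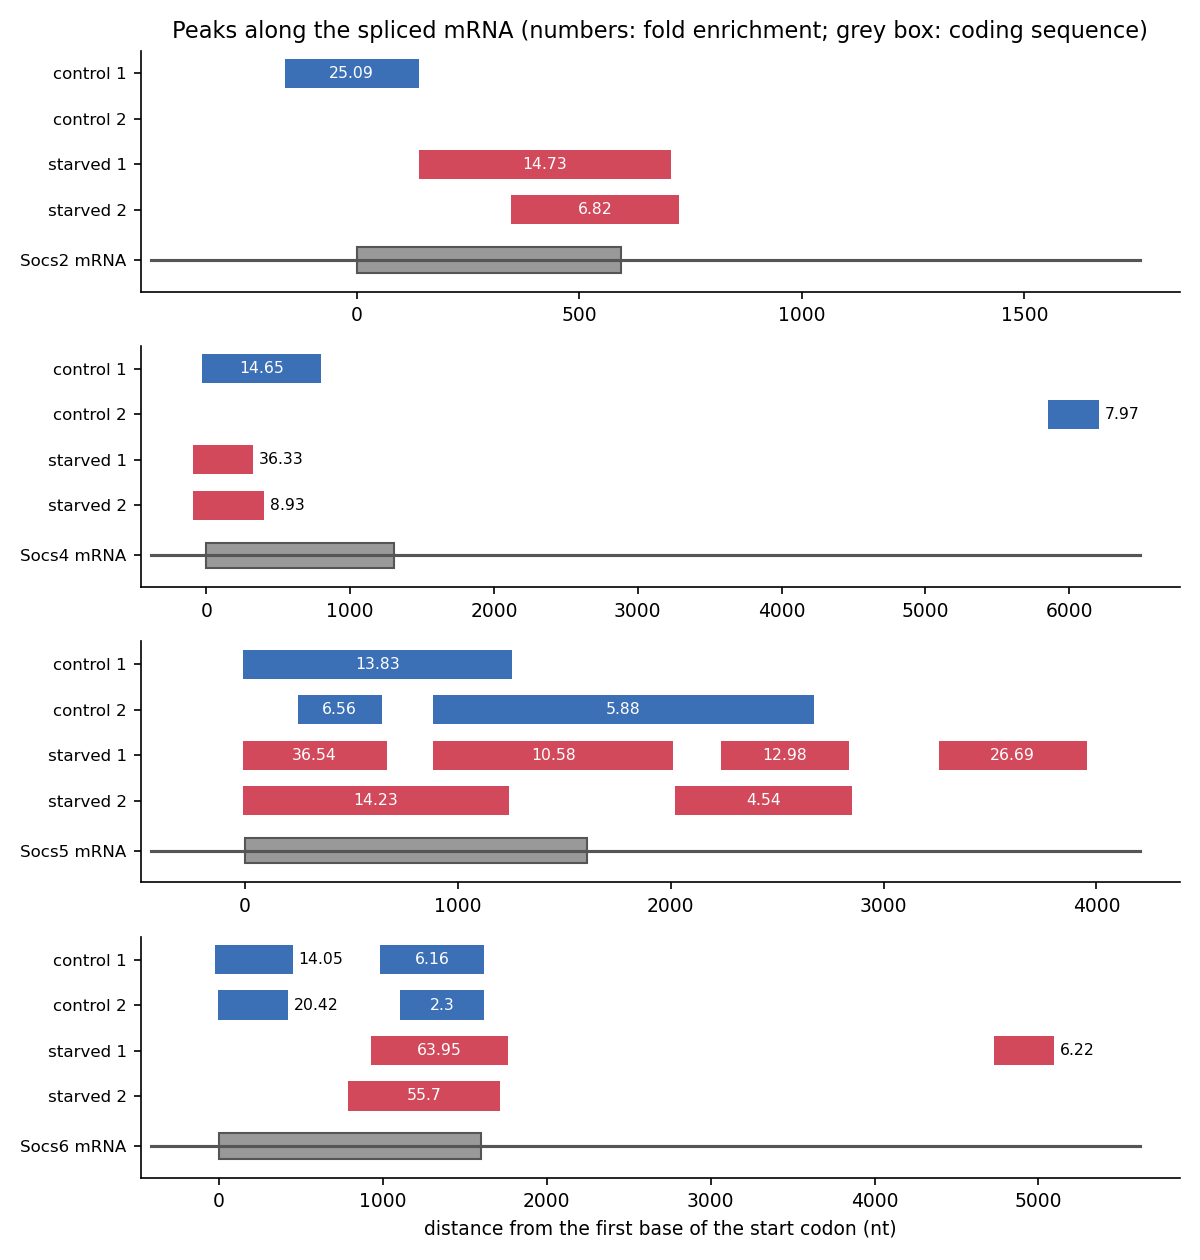
Peaks of Socs2, Socs4, Socs5 and Socs6 along the spliced mRNA in nt from the first base of the start codon, blue for control and red for starved libraries, with the fold enrichment printed on or beside each peak and the coding sequence as a grey box. Socs6 has control peaks of 14.05 and 20.42 at the start of the coding sequence where the starved libraries have none, and starved peaks of 63.95 and 55.7 at its end.

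Socs5 had 9 peaks over the 4 libraries, of which 4 were in starved replicate 1. SOCS5 restrains signalling by the epidermal growth factor receptor and the interleukin-4 receptor, and its mRNA (plus strand of chromosome 17) keeps its 536 codons in the last of 3 exons. It had 1 and 2 peaks in control and 4 and 2 after starvation. Having 4 peaks was uncommon in starved replicate 1, where 4.77% of genes with a peak had 4 or more. All 4 libraries shared a stretch of 395 nt in the first part of the coding sequence, chr17:87133882-87134276.

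The peak over that stretch had a fold enrichment of 13.83 in control replicate 1, 6.56 in control replicate 2, 36.54 in starved replicate 1 and 14.23 in starved replicate 2. The peaks ran from 87133622 to 87134888 (score 2329), from 87133882 to 87134276 (688), from 87133622 to 87134298 (3100) and from 87133622 to 87134875 (2681) in the same order. The groups did not overlap, but the lower starved value stood only just above the higher control value. On the log2 scale the group means were 3.25 ± 0.76 and 4.51 ± 0.96 (SD, n = 2 per group), a difference of 1.26 (exact permutation p = 0.333, n = 2 per group). Counted from the largest increase, this difference ranked 280 among the 2257 regions. Relative to the library medians it fell to 1.00 and the groups overlapped. The value rested in large part on starved replicate 1, without which it was 0.58, and without control replicate 2 it was 0.72. Peaks of the same chain of overlaps ran to 87136487, and taking the mean of all of them in each library gave 0.34.

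The stop codon of Socs5 was covered in control replicate 2, with a fold enrichment of 5.88 from 87134518 to 87136304 (score 430), and in starved replicate 1, with 10.58 from 87134518 to 87135646 (score 2583). Further along the 3′ UTR, starved replicate 1 had a peak of 12.98 from 87135868 to 87136472 (score 2495) and starved replicate 2 one of 4.54 from 87135653 to 87136487 (score 119, with a deposited false discovery rate of 55.3%). The wide control replicate 2 peak overlaps both of these, so the 3′ UTR was not marked in starved cells alone. A last peak, from 87136894 to 87137588, was found in starved replicate 1 only, at 26.69 (score 2053).

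Socs4, a regulator of epidermal growth factor receptor turnover on the plus strand of chromosome 14, had its peak at the 5′ end of a coding sequence of 436 codons that lies within the last exon. Fold enrichment was 14.65 in control replicate 1 (47289583 to 47290405), 36.33 in starved replicate 1 (47289517 to 47289934) and 8.93 in starved replicate 2 (47289517 to 47290009). Control replicate 2 had no peak there. Its single Socs4 peak, of 7.97, lay 4724 nt after the last coding base, from 47295465 to 47295818 (score 222). Taking the strongest peak in each library whatever its place, starved exceeded control by 0.74 log2 units, with overlapping groups (exact permutation p = 0.667, n = 2 per group), and without starved replicate 1 the sign turned (-0.28). The control replicate 1 peak had a score of 1874 and the starved replicate 1 peak reached 3100, while that of starved replicate 2 had a score of 281 and a deposited false discovery rate of 33.9%.

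Socs2 encodes the feedback inhibitor of growth hormone signalling and is read from the minus strand of chromosome 10. It was the member with a region called in both starved and in neither control library. This region spans the later part of its 198 codons and the stop codon, with fold enrichments of 14.73 in starved replicate 1 (95412544 to 95413110) and 6.82 in starved replicate 2 (95412525 to 95412902). The scores were 932 and 195, and the lower of the peaks had a deposited false discovery rate of 41.6%. Control replicate 1 instead had a Socs2 peak of 25.09 over the start codon, from 95414831 to 95415130 (score 1509), which no other library shared. The control replicate 1 peak ended on the last base of the second exon and the starved replicate 1 peak began on the first base of the next, so that they abut in the spliced mRNA without sharing a base. Of all member peaks 8 of 25 had an edge on an annotated exon boundary, beside 47.2% of all peaks.

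Cish and Socs7 had 1 peak each. CISH is induced through STAT5 and restrains signalling by erythropoietin and interleukin-2 family cytokines, and its peak lay in the 3′ UTR (chromosome 9), from 107301280 to 107301479, in control replicate 1 only (fold enrichment 12.87, score 975). The Socs7 peak lay in the first exon on chromosome 11, over codons 58 to 261 of 579, from 97362813 to 97363423, in starved replicate 1 only (24.69, score 1298). SOCS7 binds adaptor proteins such as NCK and has been tied to insulin action. With a peak in 1 library, neither gene can be compared between groups.

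The 25 member peaks come from 11 regions on 6 genes, so their places along the mRNA are given as a description, without a test. By their centres 16 of 25 (64%) were coding, 1 (4%) was no more than 100 nt from the last coding base, 7 (28%) in the rest of the 3′ UTR and 1 (4%) in the 5′ UTR. Over all 36526 placed peaks the shares were 46.0%, 12.4%, 36.7% and 4.82%. Within 200 nt of the last coding base the count was 4 of 25 (16%), beside 21.3% of all peaks. The coding-sequence peaks came from Socs2, Socs4, Socs5, Socs6 and Socs7, and those of Socs4, Socs5 and Socs6 sit in the large last exon that holds their entire coding sequence. Counting any peak that covers the last coding base, 8 of 25 (32%) member peaks did so, all of them in Socs2, Socs5 or Socs6, beside 26.5% of all peaks, so that members stood below all peaks near the stop codon by their centres and above them by coverage. GGAC was found on the transcribed strand in 16 of 25 windows of 200 bp at the centres of member peaks (64%), close to the 63.6% of all peaks. GGACT was found in 8 (32%), beside 26.5% of all peaks.

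The genes that SOCS proteins act on and work with were described from 7 lists with 84 genes. Peaks were called on 50 of them in any library, beside 42.6% of all annotated protein-coding genes. A peak in all 4 libraries was found for 15, which is 30% of those with a peak, beside 29.2% over all genes. By role, peaks were found for 3 of 10 cytokine ligands, 14 of 19 receptors, 3 of 4 JAK kinases, 5 of 7 STATs, 8 of 10 other inhibitors, 5 of 6 SOCS box ligase partners and 12 of 28 other SOCS box genes. The 97 regions of these genes included 11 with a peak in all 4 libraries. Among these 11 is a Stat6 region whose starved peaks carry the name of the neighbouring gene Nab2.

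Of the kinases and STATs only Jak1 and Stat3 had a peak in all 4 libraries, and neither separated the groups. Jak1, which serves most cytokine receptors, had strongest fold enrichments of 11.67 and 4.47 in control against 8.5 and 4.91 in starved cells (difference -0.16 log2 units, exact permutation p = 1, n = 2 per group). Stat3, the main target of gp130 receptors, had 5.9 and 5.01 against 4.75 and 9.7 (difference 0.32, exact permutation p = 1, n = 2 per group). In both genes starved and control values were interleaved. Jak2 was called in control replicate 2 (50.02, at the stop codon) and starved replicate 1 (6.47, in the coding sequence), and Tyk2 in control replicate 2 only (14.22). Stat2 was called at 8.38 in control replicate 2 and 16.42 in starved replicate 1. Stat5a was called at 4.11 in control replicate 1 only. Stat6, the STAT of interleukin-4 signalling, had strongest values of 7.13 and 12.42 in control and 6.89 in starved replicate 1, each in a different region. At its 3′ end it had peaks of 5.12 and 12.42 in the control libraries and none under its own name in the starved libraries. Overlap joined that region to peaks of the neighbouring gene Nab2, of 41.16 and 10.58 in the starved libraries, so it is not counted among the regions of a single group below. Jak3, Stat4 and Stat5b had no peak.

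Regions that separated the groups were found in 9 genes of the lists, in both directions. The starved values lay above the control values in 2 of the 11 regions called in every library, against a background of 22.9%, and lay below them in 3 of 11, against a background of 18%. Relative to the library medians the balance of the background turned, with 16.9% of regions higher and 25.1% lower, and the pathway regions numbered 2 higher and 4 lower, the added one being that of Pias4 (82.75 and 201.27 in control against 39.7 and 97.05). Il6st, the gp130 receptor subunit shared by the interleukin-6 family and blocked by SOCS3, had 13.11 and 11.66 in control against 41.84 and 43.97 in starved cells in its 3′ UTR (chromosome 13, 112503705 to 112507360). Its difference of 1.79 log2 units was larger than the spread between replicates (exact permutation p = 0.333, n = 2 per group). Asb8, another SOCS box gene, had 22.11 and 6.67 against 43.13 and 43.65 near its stop codon, a difference of 1.84.

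The lower regions were those of Ifnar2, Pias1 and Pias2. Ifnar2, a subunit of the type I interferon receptor, had 118.24 and 87.97 in control against 78.58 and 21.34 in starved cells (difference -1.32). Pias1, a SUMO ligase that restrains STAT activity, had 33.56 and 15.8 against 10.81 and 8.25 (difference -1.29) in its coding sequence, and its relative Pias2 had 12.13 and 16.93 against 3.81 and 10.31 (difference -1.19) in its 3′ UTR. Elsewhere on these mRNAs the values ran the other way. Pias1 had a peak of 50.67 at the stop codon in starved replicate 1 only, and a coding region of Pias2 had 4.65 in control replicate 1 against 12.69 and 25.4 in starved cells. By the strongest peak of the gene, Pias2 differed by 0.33 and Pias1 by -0.17 log2 units, with overlapping groups in both. The 5 regions of Il6st, Asb8, Ifnar2, Pias1 and Pias2 kept their order relative to the library medians. Each had an exact permutation p of 0.333, the smallest possible. A region in both starved and in neither control library was found in Ghr (5.43 and 14.01), Il4ra (73.4 and 9.48) and Ptpn11 (7.84 and 6.62), and the reverse in Wsb1 (8.01 and 3.81 in control). Ghr, Il4ra and Ptpn11 each had a further region that was also called in 1 control library. These counts, 3 and 1 of 97 regions, stand beside backgrounds of 3.2% and 4.15%.

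By the strongest peak of each gene, 5 of the 15 pathway genes with a peak in all 4 libraries had higher starved values, against a background of 23.4%, and 1 (Ifnar2) had lower ones, against 15.6%. Besides Il6st and Asb8 these were Lif, Ptpn1 and Spsb1, whose strongest peaks lay in different regions in different libraries. Lif, a cytokine that signals through gp130, had 30.65 and 27.7 in control against 50.5 and 169.84 in starved cells. Ptpn1, a phosphatase that acts on JAK kinases, had 18.51 and 11.41 against 28.05 and 33.97. Spsb1, a SOCS box protein, had 12.88 and 3.84 against 52.97 and 17.92. No region of these 3 genes was called in all 4 libraries.

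**Figure D3:**
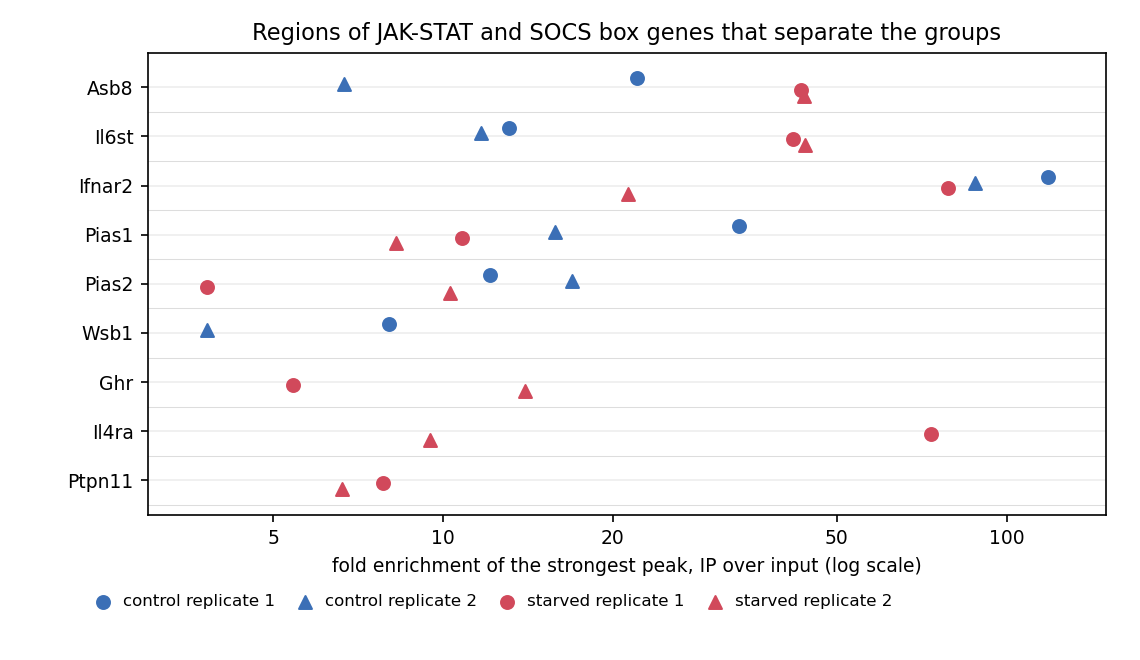
Fold enrichment (log scale) in the 9 regions of JAK-STAT and SOCS box genes whose groups did not overlap or that were called in both libraries of a single group, with blue for control, red for starved, circles for replicate 1 and triangles for replicate 2. Il6st and Asb8 lie to the right after starvation, Ifnar2, Pias1 and Pias2 to the left, and Ghr, Il4ra, Ptpn11 and Wsb1 have values in a single group.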

How the data were processed

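Per the labels and the study's methods, Cutadapt was used for trimming, HISAT2 2.0.4 for alignment to mm10, and MACS2 for calling the peaks of each IP library over its input, of which the authors kept those on mRNA exons. The authors deposited, for each peak, a fold enrichment (a ratio of IP to local input), a score (−log10 of p, times 10) and a false discovery rate in percent. A further deposited table holds the authors' own comparison of the groups (fold change, p-value, adjusted p-value, direction) and was not used. No depths are given.

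Peaks were selected by exact gene name, since synonyms of Socs4 and Socs6 include other members' names. No peak with another gene name lay on exons of the members' reference transcripts (0 peaks). Starts were raised by 1 to count from 1. Regions are unions of peaks that overlap by at least 1 bp, whatever gene they name, valued by the strongest peak of each library. Peaks were placed by their centres on GENCODE M21 transcripts (94.4% of peaks placed). Older names in the pathway and marker lists were matched through gene identifiers, and all 106 list genes were found in the annotation. The library was the unit, and control and starved libraries were compared with exact two-sided permutation tests. Leaving out a library gives a value without a test. The steps were tested on simulated data (7 of 7 quantities recovered, 2000 simulated regions) in Python 3.11.15 with numpy 2.4.6, pandas 2.3.3 and matplotlib 3.10.9. All members were named. Kinases and STATs with a peak, and genes of the lists with a region that separated the groups, were named by rule, except for 1 gene that is not reported here. Value columns left unmapped numbered 0. The members and lists were chosen with earlier results of these data known. The labels number the replicates, without saying whether they came from separate cultures, so the spread may be partly technical.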

Additional observations from a re-analysis of the deposited data

How the results depend on the processing

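The depth of the libraries is unknown, so an uncalled peak sets no upper limit on m6A. Of 107 values that could be recomputed under alternatives, 92 kept their direction or stayed within 1.5 times of a count. The difference in members with a peak fell to 0 without starved replicate 1 and is counted among the 92. The difference in the 3′ Socs6 region could not be computed where filtering removed the control replicate 2 peak, and those cases are not among the 107. The number of SOCS regions with a peak in all 4 libraries was 1 in place of 2 with peaks of at least 4-fold only, with each list cut to its 8974 best-scoring peaks and with scores of at least 100 only. Within 200 nt of the last coding base the member peaks numbered 4 (16%, beside 21.3% of all peaks). GGAC was in 9 of 25 windows of 100 bp (36%, beside 41.3% of all peaks), and the wider DRACH motif in 25 of 25 windows of 200 bp, as in 98.3% of all peaks. Leaving out each library in turn moved the difference in member peaks from -0.5 to 3.5, in members with a peak from -0.5 (without control replicate 2) to 1.5, in median log2 fold enrichment from -0.10 to 1.37 and in the strongest Socs4 peak from -0.28 to 1.75. Regions called in the starved group only numbered 1 to 4 in these runs, and regions called in the control group only 1 to 3, since with 1 library in a group its single-library regions count. The Socs6 difference ranged from 3.28 to 4.70 and the Socs5 difference from 0.58 to 1.94. With the replicate number as a block, the Socs6 difference of 3.99 had an exact sign-flip p of 0.5, the smallest that 2 pairs allow, and the block changed no call. Same-numbered libraries did not deviate together (correlation -0.0173 over the 2257 regions), so the numbers were not taken as pairs. The planned use of peak summits was not run, since the lists used here have no summit column.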

Other observations

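GGAC occurs 15 times in the Socs1 mRNA (5.16 per kb) and 13 times in the Socs3 mRNA (5.09 per kb), the members without a peak. Over the whole mRNA, the members with a peak in all 4 libraries had the lowest densities of the 8, with 20 in Socs5 (4.30 per kb), 11 in Socs6 (1.82 per kb) and 11 in Socs4 (1.60 per kb). Socs2, with a peak in 3 libraries, had the highest, 15 (6.75 per kb), and Cish and Socs7, with a peak in 1 library, had 14 (4.91 per kb) and 31 (4.42 per kb). In the coding sequence alone the order differed, with Cish lowest (2.59 per kb), then Socs4 (3.06), Socs6 (5.00) and Socs5 (5.60). These values are a description of 8 mRNAs and were not tested.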
